A study of Mus musculus with 20 samples.

Results

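Double knockout Bcor-/-Dnmt3a-/- megakaryocyte-erythroid progenitors (MEP) were compared with MEP of the Bcor-/- genotype, which sets cells labelled as lacking both genes against cells labelled as lacking Bcor only. The comparison holds 4 of the 20 RNA-seq libraries of the series, 2 from Bcor-/-Dnmt3a-/- mice and 2 from Bcor-/- mice, chosen by the genotype in their labels. All mice were of the C57BL/6 strain, and the labels give neither their age nor their disease stage. Both alleles were conditional and were to be removed in the blood system by Mx1-Cre, a Cre recombinase switched on by an interferon response after injection of pIpC. By this design both groups share the Bcor deletion, the Cre and the injections. The RNA values of Bcor given below do not by themselves show the deletion. The study describes its double knockout mice as developing acute erythroid leukemia (AEL) and calls those of its RNA-seq comparison leukemic, so the added loss of Dnmt3a and the leukemia cannot be told apart here. MEP were sorted from bone marrow (BM) by flow cytometry as lineage-negative, Sca1-negative, Kit-positive cells without CD34 and with little or no Fc gamma receptor II/III. The label of Bcor-/- replicate 1 names a pair of mice, and every other library used here is labelled with 1 mouse. A figure legend of the study gives more mice per genotype than the labels give libraries of these genotypes, and the labels were followed. The libraries of WT (n = 3) and Dnmt3a-/- (n = 3) MEP, and LSK cells (lineage-negative, Sca1-positive, Kit-positive stem and early progenitor cells) of the same mice, are given beside the results as a reference.

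MEP are the bone marrow progenitors from which red cells and platelets arise. Along the red cell path the transcription factors GATA1 and KLF1 switch on globin, heme and membrane genes, while stem cell genes such as Gata2, Kit and Cd34 are turned down. BCOR is a subunit of a variant Polycomb repressive complex, PRC1.1, which ubiquitinates histone H2A at CpG islands, and DNMT3A places new methyl groups on DNA. Mutations of both genes are known from human myeloid leukemia.

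Values were FPKM, that is fragments counted on a gene per kilobase of its transcripts, scaled to the number of fragments sequenced. They were analyzed as log2(FPKM + 1), the scale of every log2 fold change below, which understates the change of low genes. Of 24315 genes, 11270 averaged 1 FPKM or more in the 4 libraries and were tested with limma. Calls required limma's unadjusted p to be under 0.05 together with a change of more than 1.5-fold, which are the limits the study used. By this rule 2094 genes (18.6% of those tested) were called, 1145 higher (10.2%) and 949 lower (8.42%) in the double knockout. None passed a Benjamini-Hochberg adjusted p of 0.05 in limma's test, and the adjusted p of the genes called lay between 0.141 and 0.228, while 2471 genes were under 0.05 before adjustment if the size of the change is ignored. With all 10 MEP libraries in 1 fit, which share 1 estimate of the spread, 3250 genes (28.8%) were called and 2363 (21%) also had an adjusted p under 0.05. With 1 variance per genotype in that fit, 2002 genes were called and 69 had an adjusted p under 0.05 in limma's test. The adjusted p given for a gene below is that of the 4-library fit. The split of higher and lower depended on the scaling of the libraries: with quantile normalization 715 genes were called higher and 1609 lower, and with centring on the library medians 863 and 1651, as these scalings shifted the median over the tested genes from 0.06 to -0.15 and -0.11. With 2 libraries against 2, an exact permutation test of a single gene cannot give a p below 0.333.

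The double knockout libraries resembled each other less than the Bcor-/- libraries did, and most results below are read library by library for this reason. Over the tested genes Pearson's r was 0.812 between the 2 Bcor-/-Dnmt3a-/- libraries, 0.987 between the 2 Bcor-/- libraries and 0.816 to 0.856 across genotypes, with genes as points. Between the double knockout libraries 2866 genes (25.4%) differed by more than 2-fold, against 144 (1.28%) between the Bcor-/- libraries. Replicate 1 alone was more than 2-fold above both Bcor-/- libraries for 1067 genes, replicate 2 alone for 1001, and both for 649. In the other direction replicate 1 alone was more than 2-fold below both for 271 genes, replicate 2 alone for 356, and both for 142. For 3425 genes (30.4%) both double knockout libraries lay above both Bcor-/- libraries, and for 3302 (29.3%) both lay below, so a lack of overlap by itself was common. Taken alone, replicate 1 lay above both Bcor-/- libraries for 47.6% of the tested genes and below both for 45%. For replicate 2 these shares were 47.2% and 45.7%. The FPKM of all genes summed to 437027 and 625758 in double knockout replicates 1 and 2, and to 434345 and 438451 in Bcor-/-. Summed levels of gene lists below were not scaled to these totals, and that of replicate 2 was the largest. The depth of the libraries is unknown because no read counts were used, but the steps between low values put the double knockout libraries at 1.16 and 1.1 times the depth of WT replicate 1 and the Bcor-/- libraries at 1.43 and 1.61 times.

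**Figure D1:**
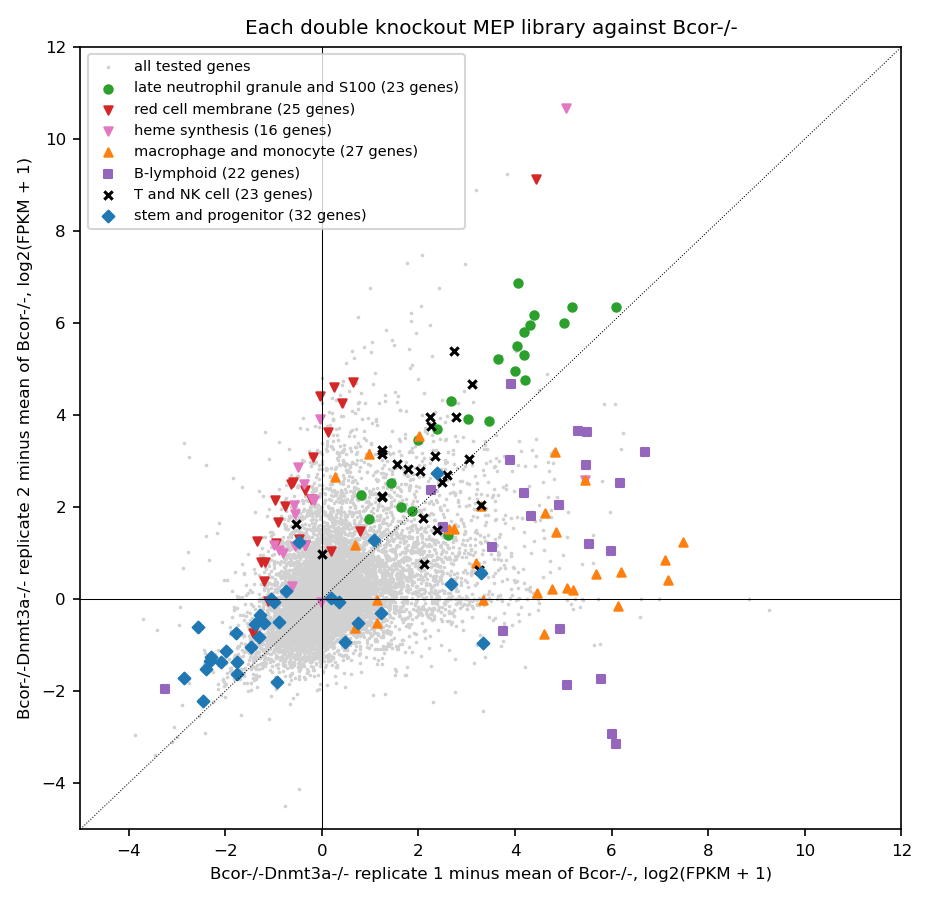
Difference of each double knockout MEP library from the mean of the 2 Bcor-/- libraries, replicate 1 on the x axis and replicate 2 on the y axis, both in log2(FPKM + 1); each point is a gene, grey for the 11270 tested genes and colored for 7 gene lists, and the dotted line marks equal differences. Late neutrophil genes lie high in both libraries and most stem and progenitor genes low in both, while red cell and heme genes rise along the y axis and macrophage and B-lymphoid genes along the x axis.

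RNA of the targeted genes was a weak check of the genotypes. Bcor had 19.6 and 26.7 FPKM in Bcor-/-Dnmt3a-/- MEP, 19.5 and 22.4 in Bcor-/- MEP and 21.3 to 26.9 in WT. The study removed some exons of Bcor, describes the resulting mRNA as very unstable and could not detect Bcor mRNA by PCR in Bcor-/- LSK cells. A value summed over the whole gene does not separate the removed exons from the others. What the levels seen here reflect was not tested. Dnmt3a had 6.85 and 3.44 FPKM in the double knockout, 7.56 and 7.65 in Bcor-/-, 5.49 to 6.64 in WT and 5.399, 2.97 and 2.56 in Dnmt3a-/- (log2 fold change of the double knockout over Bcor-/- -0.54, SE 0.36, adjusted p = 0.430). Both double knockout libraries lay below both Bcor-/- libraries, and replicate 1 lay above every WT library. The study reports that Dnmt3a was partly deleted in Dnmt3a-/- mice and completely lost only in leukemic double knockout mice. The level of replicate 1 does not show such a loss, and the reason was not tested.

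The red cell program was higher in 1 of the 2 double knockout libraries and near or below Bcor-/- in the other, with a few late genes raised in both. Alas2, the enzyme of the first step of heme synthesis in red cells, had 88.3 and 4392 FPKM in the double knockout against 1.91 and 1.49 in Bcor-/- (log2 fold change 7.86, SE 2.05, adjusted p = 0.172), the largest increase of all genes called. Slc4a1, the band 3 anion exchanger of the red cell membrane, had 123 and 3195 FPKM against 7.78 and 2.72 (6.78, SE 1.77, adjusted p = 0.172). Hba-a1, an alpha globin gene, had 1055 and 55204 FPKM against 147 and 90.7, and the beta globin gene Hbb-b2 had 705 and 30050 against 65.5 and 36.1. For these 4 genes both double knockout libraries exceeded all Bcor-/- and WT libraries, and replicate 2 exceeded replicate 1 by at least 26-fold. Globin copies are nearly identical, so their reads may be split between genes: Hbb-b1 is listed at 0 in replicate 2 and at 1854 FPKM in replicate 1. The adult globin genes took 13.6% of the summed FPKM of replicate 2, 0.827% of replicate 1 and at most 0.0641% of the Bcor-/- libraries.

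Outside these genes the heme and membrane lists split between the double knockout libraries. Of 16 tested genes of heme synthesis and transport 2 were called higher (12.5%, near the 10.2% of all tested genes) and none lower (median log2 fold change 0.69, against 0.06 over all tested genes), and the second gene called was Hmox1, which breaks heme down and is also a macrophage gene. Replicate 1 lay below both Bcor-/- libraries for 13 of the 16 (45% of all tested genes did) and replicate 2 above both for 15 (47.2%). Without replicate 2 the median of the list was -0.43 and without replicate 1 it was 1.94. Fech, which inserts iron into the heme ring, had 82.3 and 1290 FPKM against 86.4 and 83.0. Of 25 red cell membrane and surface genes 2 were called higher, Slc4a1 and the glucose transporter Slc2a1 (8%, against 10.2% of all tested genes), and 1 lower (4%, against 8.42%), the carbonic anhydrase Car1 (1475 and 2362 FPKM against 3830 and 4062). Replicate 1 was below both Bcor-/- libraries for 18 of the 25 and replicate 2 above both for 23, against the same 45% and 47.2%. The median log2 fold change of these 25 genes was 0.63. It was 2.03 without double knockout replicate 1, -0.48 without replicate 2, and 0.69 and 0.68 without Bcor-/- replicate 1 or 2.

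Bases before the start of 3 of these genes are shown because their promoters bear on the red cell and platelet groups, with matches to the GATA letters (AGATAA or AGATAG as well as TGATAA or TGATAG, on either strand) in capitals. Sequences are from RefSeq on GRCm38.p6, each the 250 bases before the transcript start and read 5′ to 3′ on the strand of the gene. Alas2 lies on the plus strand of chrX:150547167-150547416, Hba-a1 on the plus strand of chr11:32283422-32283671 and Pf4, a platelet gene described below, on the plus strand of chr5:90772185-90772434.
Alas2: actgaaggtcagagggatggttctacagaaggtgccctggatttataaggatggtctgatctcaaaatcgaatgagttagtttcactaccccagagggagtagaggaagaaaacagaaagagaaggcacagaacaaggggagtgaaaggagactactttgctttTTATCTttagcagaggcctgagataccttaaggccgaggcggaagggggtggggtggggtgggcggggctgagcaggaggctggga
Hba-a1: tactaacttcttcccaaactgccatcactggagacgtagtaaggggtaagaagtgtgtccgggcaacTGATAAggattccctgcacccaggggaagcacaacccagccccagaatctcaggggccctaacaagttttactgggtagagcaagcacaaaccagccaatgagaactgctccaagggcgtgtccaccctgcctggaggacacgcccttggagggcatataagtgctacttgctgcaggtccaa
Pf4: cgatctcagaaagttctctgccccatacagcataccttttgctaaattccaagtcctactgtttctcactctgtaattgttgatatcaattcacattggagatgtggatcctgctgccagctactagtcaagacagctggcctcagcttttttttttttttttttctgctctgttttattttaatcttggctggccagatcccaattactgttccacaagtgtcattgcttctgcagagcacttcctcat
Alas2 holds 1 match, starting 86 bases before the start, Hba-a1 holds 1 at 183 bases, and Pf4 holds none. Such letters stand in 27.1% of the 27025 RefSeq promoters at this length. Of the 9106 that could be matched by symbol to a tested gene, 1558 (17.1%) hold them. The share was 20.2% for genes called higher and 17.2% for genes called lower. The neutrophil genes Retnlg, S100a9 and Chil3, described below, hold matches too, while S100a8, Lcn2 and Gata1 hold none. The CACCC letters (CCACACCC on either strand) stand in 3.19% of the RefSeq promoters and in none of the 3 shown. A match is a description of the sequence, not evidence of binding.

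Among the red cell transcription factors Gata1 had 71.4 and 239 FPKM in the double knockout and 185 and 195 in Bcor-/- (log2 fold change -0.54, SE 0.64, adjusted p = 0.639), and Klf1, an activator of the beta globin gene, had 70.9 and 219 against 189 and 203 (-0.65, SE 0.60, adjusted p = 0.557). In both cases replicate 1 was the lowest of the 4 libraries and replicate 2 the highest, and without replicate 1 the sign turned (0.33 for Gata1 and 0.16 for Klf1). Of 22 red cell transcription factors 1 was called higher, Lyl1, and 2 lower, Ldb1 and Nfe2l2, together 13.6% against 18.6% of all tested genes. The median log2 fold change of the 22 was -0.06, and 0.51 and -0.42 without double knockout replicate 1 or 2. Without Bcor-/- replicate 1 or 2 it was -0.11 and 0.006. Ldb1, the protein that links GATA1 complexes to distant enhancers, had 95.8 and 104 FPKM against 160 and 178 (-0.75, SE 0.14, adjusted p = 0.142). Of 17 genes of erythropoietin receptor signalling 2 were called higher (11.8%, against 10.2% of all tested genes) and 2 lower (11.8%, against 8.42%). Among them Stat5a, the transcription factor downstream of the receptor, fell from 62.3 and 61.7 FPKM to 27.3 and 27.5 (-1.15, SE 0.13, adjusted p = 0.141). Stat5a was nearly equal within each genotype and its groups were far apart. The receptor itself, Epor, had 38.9 and 95.6 FPKM against 92.3 and 92.1, and Bcl2l1, a survival gene induced by the receptor, had 22.9 and 296 against 6.399 and 5.31 (adjusted p = 0.240). In the same list Podxl and Spi1 were called higher and Kit lower. The median log2 fold change of this list was 1.21, and it lay between 0.62 and 1.18 with 1 library left out.

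Of the iron genes Tfr2, a sensor of iron-loaded transferrin, fell from 58.0 and 63.7 FPKM to 16.5 and 21.9 (log2 fold change -1.63, SE 0.20, adjusted p = 0.141), and Steap3, which reduces iron inside endosomes, fell from 99.0 and 92.7 to 41.7 and 34.3. Fam132b, which encodes the hormone erythroferrone released by red cell precursors, rose from 1.58 and 1.74 FPKM to 10.5 and 57.9 (3.29, SE 0.88, adjusted p = 0.174). The transferrin receptor Tfrc had 204 and 1422 FPKM against 153 and 152 and was not called. Of 14 iron genes 1 was called higher (7.14%, against 10.2% of all tested genes) and 3 lower (21.4%, against 8.42%), Tfr2 and Steap3 among the latter. The median log2 fold change of the 14 was 0.14, and 0.53 and -0.33 without double knockout replicate 1 or 2. Without Bcor-/- replicate 1 or 2 it was 0.13 and 0.14.

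Many megakaryocyte genes were lower in both double knockout libraries. Of 28 tested megakaryocyte and platelet genes 8 were called lower and none higher, 28.6% of the list against 8.42% of all tested genes, with a median log2 fold change of -0.75. The lists of this comparison were chosen with earlier results of these data known, so such a count is a description. Pf4, the platelet chemokine, had 7.68 and 8.09 FPKM in the double knockout and 72.5 and 122 in Bcor-/- (log2 fold change -3.42, SE 0.30, adjusted p = 0.141). The groups did not overlap, and the 2 double knockout libraries were close together. WT libraries ranged from 56.5 to 243 FPKM for Pf4, so the double knockout was also below each WT library. The summed level of the list was 194 and 261 FPKM in the double knockout and 328 and 435 in Bcor-/-. In WT it was 468, 169 and 639, so WT replicate 2 lay below both double knockout libraries. The platelet glycoprotein Gp5 fell from 23.6 and 22.8 FPKM to 6.87 and 6.55, and Sdpr, Angpt1, Treml1, F2rl2 and Trpc6 were also called. The integrin Itga2b (CD41) had 5.47 and 33.4 FPKM against 42.2 and 58.3 (adjusted p = 0.346), and Gp9, which partners Gp5 in the von Willebrand factor receptor, had 3.06 and 20.5 against 10.8 and 16.03. The median of the list was -0.51 and -1.24 without double knockout replicate 1 or 2, and -0.93 and -0.61 without Bcor-/- replicate 1 or 2. Replicate 1 lay above both Bcor-/- libraries for 8 of the 28 and replicate 2 for 9 (47.6% and 47.2% of all tested genes). In the fit of all 10 libraries with 1 variance per genotype, 2 of the 28 were called lower and 1 higher. In that fit 726 of the 11270 tested genes were called lower and 1276 higher. None of the 28 was called higher under quantile normalization or median centring. In bulk libraries fewer cells of a type and less RNA per cell cannot be told apart.

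A number of stem and progenitor genes fell as well. The summed level of the 35 genes of the list, tested or not, did not fall. It was 887 and 763 FPKM in the double knockout and 777 and 729 in Bcor-/-. Of 32 tested genes 12 were called lower and 2 higher, 37.5% and 6.25% of the list against 8.42% and 10.2% of all tested genes, with a median log2 fold change of -0.84, and Ptprc (CD45), also a leukocyte surface gene, was among the higher. The median was -0.87 and -0.90 without Bcor-/- replicate 1 or 2, and -0.57 and -1.13 without double knockout replicate 1 or 2. In the fit of all 10 libraries with 1 variance per genotype, 1 of the 32 was called lower and 1 higher. Cd34 fell from 56.9 and 30.0 FPKM to 7.02 and 13.8 (log2 fold change -1.96, SE 0.48, adjusted p = 0.165). WT libraries had 23.9, 5.43 and 60.6 FPKM of Cd34 and Dnmt3a-/- libraries 44.1, 4.46 and 6.08, so libraries of both genotypes lay below the double knockout, and the adjusted p in the fit of all 10 libraries was 0.239. Kit, the stem cell factor receptor that the sort selects for, fell from 67.6 and 79.0 FPKM to 38.1 and 20.2 (-1.36, SE 0.36, adjusted p = 0.172). WT had 77.0 to 83.5 FPKM of Kit, so both double knockout libraries were below every WT and Bcor-/- library. The homeobox genes Meis1 and Hoxa10 were called lower; Hoxa10 had 2.33 and 3.66 FPKM against 6.51 and 7.97 in Bcor-/- and 0.719 to 1.66 in WT, so the double knockout lay between the other genotypes. Mycn, Esam, Adgrl4, Hmga2, Dach1 and Angpt1 were called lower too. Gata2, which keeps stem cells immature, had 6.98 and 30.2 FPKM against 41.6 and 51.4 (-1.58, SE 0.74, adjusted p = 0.313). The Fc gamma receptor genes that the sort selects against rose: Fcgr3 had 63.9 and 27.9 FPKM against 7.07 and 2.71, and Fcgr2b had 25.005 and 12.3 against 3.04 and 3.16.

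**Figure D2:**
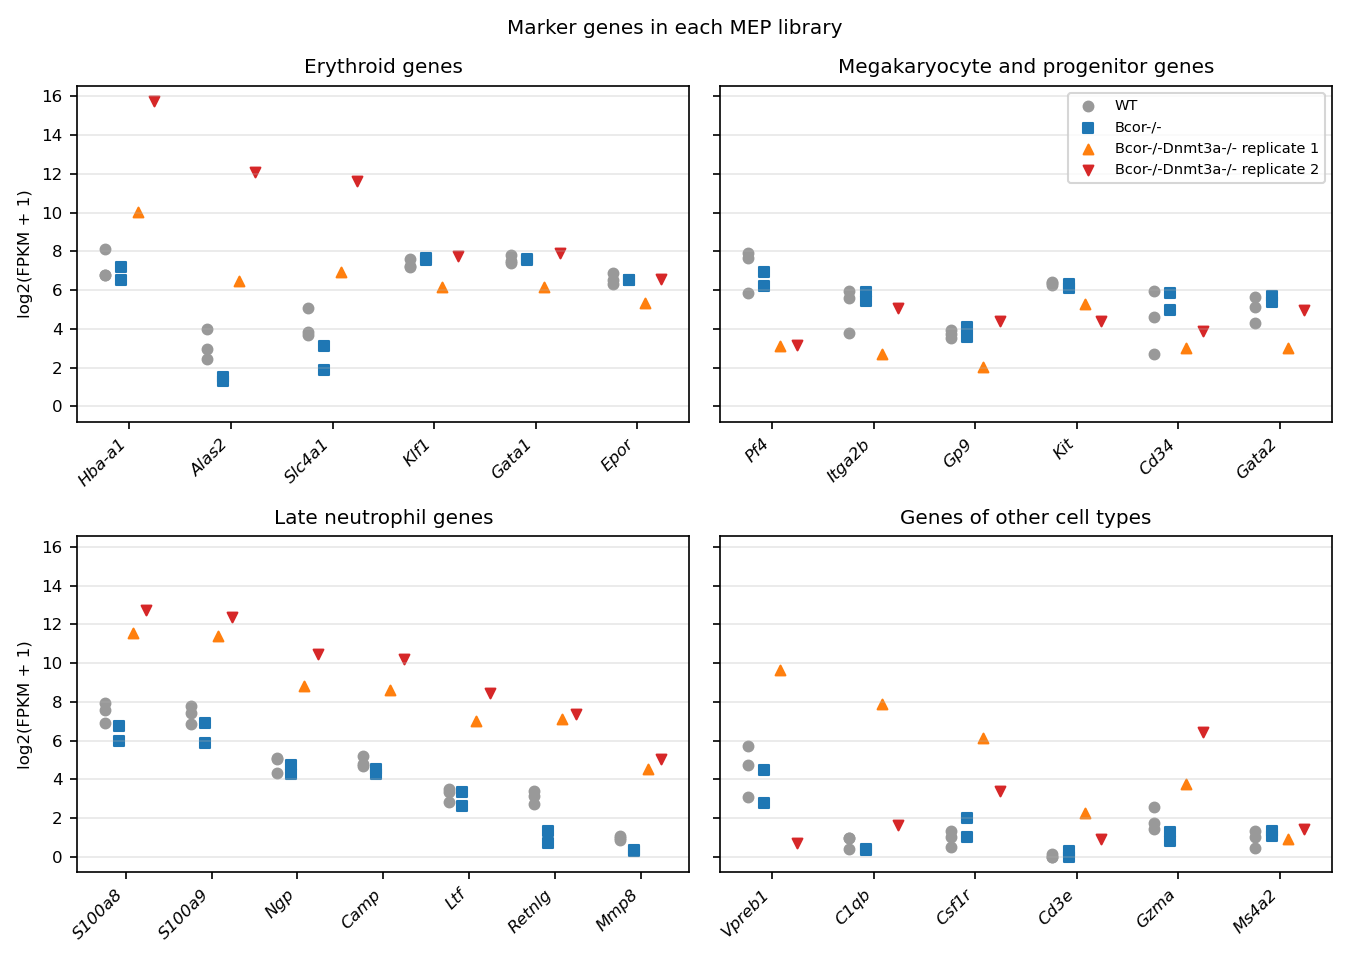
Marker genes in the MEP libraries as log2(FPKM + 1), 1 point per library: 3 WT (grey circles), 2 Bcor-/- (blue squares) and the 2 Bcor-/-Dnmt3a-/- libraries (orange and red triangles). Both double knockout libraries stand above the others for the 7 late neutrophil genes and below them for Pf4, whereas the red cell genes Alas2 and Slc4a1 are highest in replicate 2 and Vpreb1 and C1qb in replicate 1.

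Genes of late neutrophil development were higher in both double knockout libraries. Of 23 tested genes of late granules and S100 proteins 22 were called higher and none lower, 95.7% against 10.2% of all tested genes, with a median log2 fold change of 4.43. S100a8 and S100a9, subunits of the calcium-binding protein calprotectin, had 2988 and 6713 FPKM and 2682 and 5302 FPKM in the double knockout, against 108 and 61.7 and 118 and 57.2 in Bcor-/-. Retnlg, a resistin-like secreted protein of neutrophils, had 138 and 164 FPKM against 0.662 and 1.47 (log2 fold change 6.22, SE 0.27, adjusted p = 0.141). Retnlg differed little between the double knockout libraries and stood at least 93.9-fold above both Bcor-/- libraries. The secondary granule genes Ltf (lactoferrin), Ngp, Camp (cathelicidin) and Lcn2 rose by 4.76 to 5.28 on the log2 scale. Chil3, Mmp8, Mmp9, Cd177 and Wfdc21 rose by 4.43 to 5.47, and Ltb4r1, a leukotriene receptor, was the single tested member not called (3.65 and 11.8 FPKM against 1.77 and 1.57). When 1 library was left out, the median of the list lay between 3.65 and 4.76. Under quantile normalization and median centring 20 and 21 of the 23 were called higher. The summed level of the list was 7716 and 18025 FPKM in the double knockout, 388 and 235 in Bcor-/-. S100a6, another calcium-binding S100 gene outside the list, had 193 and 199 FPKM against 8.70 and 6.56 (4.53, SE 0.19, adjusted p = 0.141), with 6.05 to 7.85 in WT.

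Fewer of the early granule genes were called. Of 19 tested primary granule and early granulocyte genes 4 were called higher (21.1%, against 10.2% of all tested genes), Fcgr3, Fcnb, Ctsc and Fcgr2b, and 1 lower (5.26%, against 8.42%), the chaperone Calr. The median log2 fold change of the 19 was 0.22, and 0.30 and 0.08 without double knockout replicate 1 or 2. Without Bcor-/- replicate 1 or 2 it was 0.54 and -0.14. The difference between the early and late lists was not tested. Mpo, the myeloperoxidase that defines this stage, had 55.1 and 121 FPKM in the double knockout and 263 and 145 in Bcor-/- (log2 fold change -1.25, SE 0.53, adjusted p = 0.280). The proteases Elane (36.7 and 88.5 FPKM against 112.5 and 74.6) and Prtn3 (41.3 and 74.3 against 99.3 and 52.8) overlapped between the genotypes, and neither was called.

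Genes of other blood lineages were also called higher, and B-lymphoid genes stood highest in replicate 1. Of 23 tested T and NK cell genes 18 were called higher (78.3%, against 10.2% of all tested genes, median log2 fold change 2.31): Gzma, a granule protease of killer cells, had 12.6 and 84.5 FPKM against 1.43 and 0.725, and Cd247, a signalling chain of the T cell receptor, had 14.1 and 14.0 against 1.16 and 0.523. The median was 2.72 and 1.96 without Bcor-/- replicate 1 or 2, and 2.79 and 2.25 without double knockout replicate 1 or 2. Under quantile normalization 13 of these genes were called higher. Their summed level was 425 and 990 FPKM against 143 and 71.4, while the T cell marker Cd3e stood at 3.81 and 0.887. Of 22 B-lymphoid genes 11 were called higher (50%, against 10.2%) and 1, Dntt, lower (4.55%, against 8.42%), but the list split by library. Vpreb1, part of the surrogate light chain of B cell precursors, had 793 FPKM in replicate 1 and 0.627 in replicate 2 against 21.5 and 5.801. Ms4a1 (CD20) had 14.1 and 24.7 FPKM and was listed at 0 in both Bcor-/- libraries. The summed level of the B-lymphoid list was 4447 and 510 FPKM against 290 and 130.

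Macrophage and monocyte genes were called higher in 7 of 27 (25.9%, against 10.2% of all tested genes) and lower in none. The complement genes C1qa, C1qb and C1qc, which mark tissue macrophages, had 174, 231 and 155 FPKM in replicate 1 and 0.616, 2.10 and 1.06 in replicate 2, against at most 0.324 in the Bcor-/- libraries, and none passed the test. Csf1r, the receptor for macrophage colony-stimulating factor, had 69.9 and 9.49 FPKM against 3.03 and 1.04 (log2 fold change 3.25, SE 1.08, adjusted p = 0.215). Summed over the list, replicate 1 had 1957 FPKM, replicate 2 had 537 and Bcor-/- 259 and 221. Of 19 mast cell, basophil and eosinophil genes 8 were called higher (42.1%), Ear2 and Il5ra of eosinophils among them, and 1 lower, the mast cell protease Cpa3 (4.18 and 6.13 FPKM against 14.3 and 15.3). Of 7 tested stromal and endothelial markers Vim, which leukocytes also express, was called higher (200 and 217 FPKM against 89.7 and 77.0), and Plvap (0.775 and 1.11 against 6.24 and 5.55) and Pdgfrb (0.614 and 1.85 against 4.06 and 3.78) were called lower, while Col1a1 and Cdh5 were at or below 1.11 FPKM in all 4 libraries. The shares called were 14.3% higher and 28.6% lower, against 10.2% and 8.42% of all tested genes. The median log2 fold change of these 7 genes was 1.27, and it lay between -0.06 and 1.42 with 1 library left out. With 1 library left out, the median log2 fold change of the B-lymphoid list lay between 1.68 and 5.01. For the macrophage and monocyte list it lay between 0.78 and 4.59, and for mast cell, basophil and eosinophil genes between 1.25 and 1.65. Some of these other-lineage markers followed the genotype and others 1 double knockout library. Replicate 2 lay above both Bcor-/- libraries for 15 of the 22 B-lymphoid genes and below both for 7. Over all tested genes these shares were 47.2% and 45.7%. The part of these markers in any of the changes reported here was not tested.

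**Figure D3:**
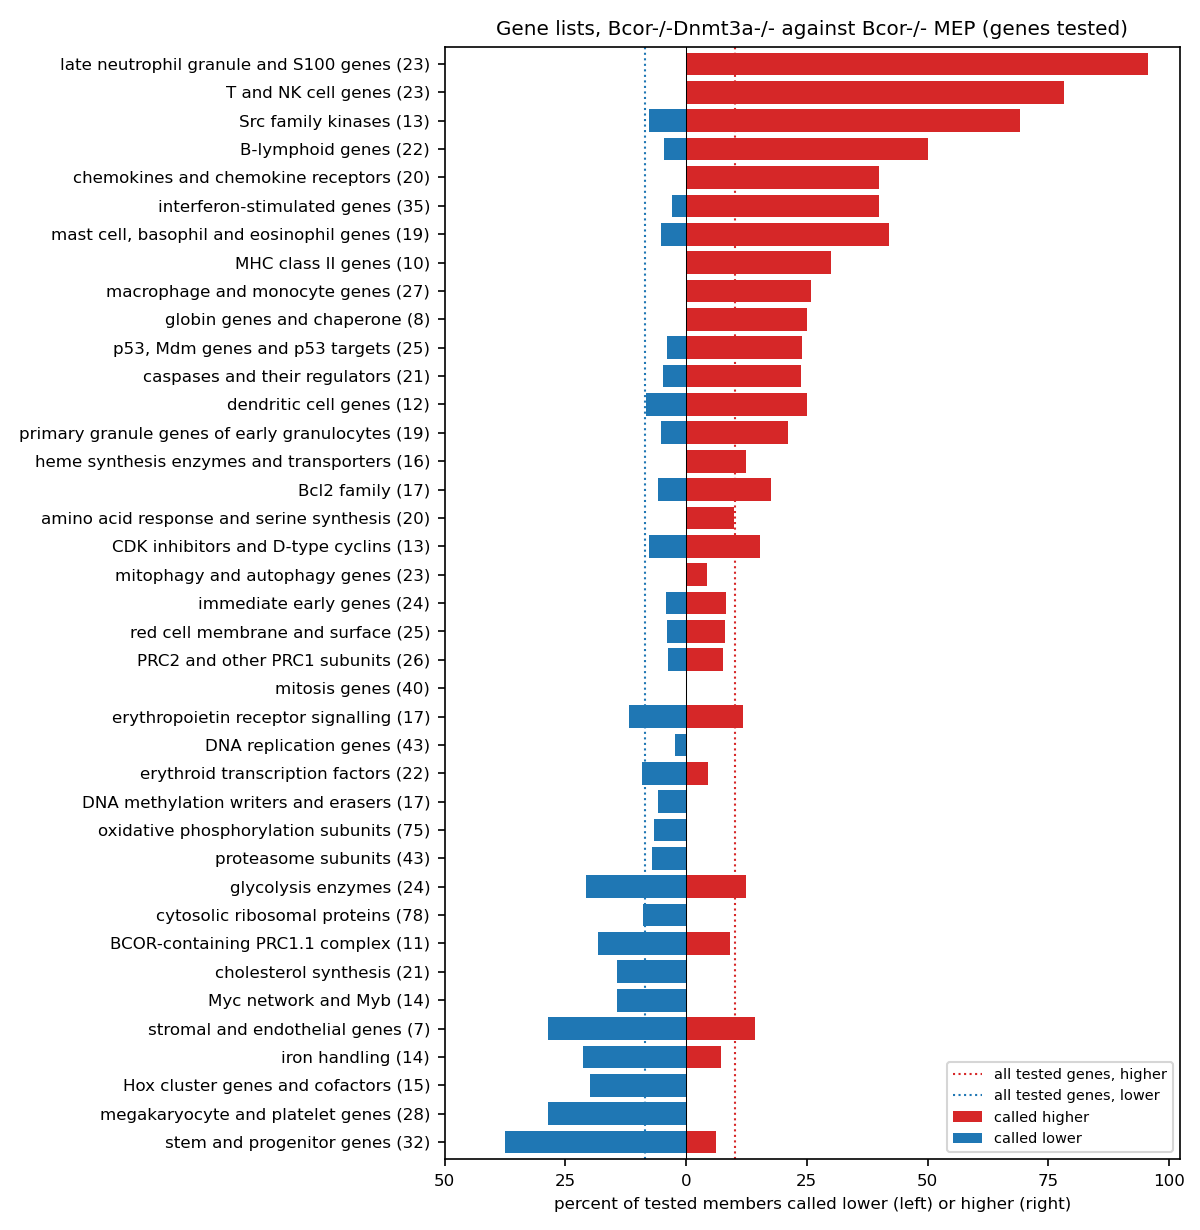
Percent of the tested members of 39 gene lists called lower (blue, to the left) or higher (red, to the right) in Bcor-/-Dnmt3a-/- against Bcor-/- MEP, with the number of tested members in parentheses; dotted lines mark the 10.2% and 8.42% of all tested genes called higher and lower. Late neutrophil and T and NK cell genes stand at the top, and megakaryocyte and stem and progenitor genes at the bottom.

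Part of the interferon-stimulated genes rose. Of 35 tested genes 14 were called higher (40%, against 10.2% of all tested genes) and 1 lower, with a median log2 fold change of 1.502, and in 26 both double knockout libraries were above both Bcor-/- libraries (30.4% of all tested genes were), while replicate 2 lay below both for 6 (45.7%). The median was 1.53 and 1.38 without Bcor-/- replicate 1 or 2, and 0.62 and 2.12 without double knockout replicate 1 or 2. Oas3, an antiviral RNA sensor, had 7.71 and 14.1 FPKM against 0.791 and 1.24, and Irf7, the factor that amplifies the response, had 65.7 and 28.9 against 4.67 and 5.91 (log2 fold change 2.83, SE 0.46, adjusted p = 0.141). Isg15 and Rsad2 stood far higher in replicate 2, with 31.7 and 430 FPKM against 5.18 and 6.80 for Isg15. All 4 libraries came from mice of the Mx1-Cre line, and neither the time from the pIpC injections to the sort nor its part in these levels is given by the labels. Chemokines and their receptors were called higher in 8 of 20 (40%, against 10.2% of all tested genes) and lower in none, with Ccl5 at 115 and 343 FPKM against 23.3 and 6.43. Of 13 Src family kinases and related kinases 9 were called higher (69.2%) and 1, Csk, lower, Lck of T cells (33.5 and 36.2 FPKM against 6.84 and 3.23) among the higher. With 1 library left out, the median log2 fold change of these kinases lay between 0.99 and 1.57. For the chemokine genes it lay between 1.06 and 2.12.

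p53 itself fell while several of its targets rose. Trp53 had 76.5 and 90.3 FPKM in the double knockout and 154 and 159 in Bcor-/- (log2 fold change -0.91, SE 0.15, adjusted p = 0.141), with 114 to 139 in WT. Of 25 tested genes of the p53 list 6 were called higher (24%, against 10.2% of all tested genes) and Trp53 alone lower. The median log2 fold change of the list was 0.55, and it lay between 0.29 and 0.70 with 1 library left out. Trp53inp1, a target that promotes cell death, rose from 3.11 and 3.47 FPKM to 31.3 and 48.5 (3.22, SE 0.28, adjusted p = 0.141), and Plk2, Sesn1, Pmaip1, Rrm2b and Mdm4 were called too. Mdm2, the ligase that degrades p53, had 23.6 and 54.0 FPKM against 21.3 and 22.5 (adjusted p = 0.429), and the cell cycle inhibitor Cdkn1a had 7.28 and 27.6 against 9.50 and 11.3.

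The apoptosis genes did not move in 1 direction. Of 17 tested Bcl2 family genes 3 were called higher (17.6%, against 10.2% of all tested genes) and 1 lower (5.88%, against 8.42%). Among 21 caspases and their regulators 5 were called higher (23.8%) and 1 lower (4.76%). Of the pro-apoptotic genes Bid fell from 47.2 and 48.7 FPKM to 29.0 and 24.9 (log2 fold change -0.81, SE 0.16, adjusted p = 0.142), while Bak1 had 45.4 and 38.8 against 62.2 and 57.1 (-0.50, adjusted p = 0.206), short of the fold threshold. Pmaip1 (Noxa) rose by 1.23 on the log2 scale. Of the survival genes Mcl1 rose from 79.1 and 78.9 FPKM to 122 and 174, and Bcl2 had 11.04 and 12.8 against 10.5 and 8.70 (adjusted p = 0.454). The inhibitors of apoptosis Birc2, Birc3 and Xiap rose. Parp1, a DNA repair enzyme and caspase substrate, had 171 and 73.0 FPKM against 143 and 143, on either side of Bcor-/-.

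Most mitosis genes stood on opposite sides of Bcor-/- in the 2 double knockout libraries. None of 40 mitosis genes was called in either direction; replicate 1 was below both Bcor-/- libraries for 30 of them (45% of all tested genes) and replicate 2 above both for 37 (47.2%), as for the proliferation marker Mki67 (172 and 750 FPKM against 188 and 177). Of 43 DNA replication genes Pold1, the catalytic subunit of polymerase delta, alone was called (36.5 and 32.1 FPKM against 70.3 and 66.4), 2.33% of that list. Over all tested genes 10.2% were called higher and 8.42% lower. The median log2 fold change of the mitosis genes was 0.27, and 0.73 and -0.16 without double knockout replicate 1 or 2. That of the replication genes was -0.11, and 0.10 and -0.32 without these libraries. Ccnd3, the D-type cyclin of red cell precursors, rose from 117 and 112.3 FPKM to 221 and 232 (log2 fold change 0.97, SE 0.13, adjusted p = 0.141). Myc fell from 144 and 142 FPKM to 69.4 and 41.0 (-1.40, SE 0.30, adjusted p = 0.149), and WT had 67.6 to 95.7.

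Of 11 genes of the BCOR complex PRC1.1, 1 was called higher (9.09%, against 10.2% of all tested genes) and 2 lower (18.2%, against 8.42%). The median log2 fold change of the list was 0.12, and it lay between -0.09 and 0.18 with 1 library left out. Kdm2b, the subunit that binds CpG islands, fell from 34.2 and 37.0 FPKM to 21.9 and 20.7 (log2 fold change -0.71, SE 0.15, adjusted p = 0.148), and Ring1, a ubiquitin ligase subunit, fell from 19.0 and 17.7 to 10.1 and 12.1. Bcl6, the repressor that recruits BCOR in B cells, rose from 1.80 and 1.40 to 5.34 and 5.76 FPKM. Of 17 writers, readers and erasers of DNA methylation Mbd3, a subunit of the NuRD repressor complex, alone was called (70.1 and 71.1 FPKM against 113 and 116). That is 5.88% of the list called lower, against 8.42% of all tested genes, and none higher, against 10.2%. The maintenance methyltransferase Dnmt1 had 85.3 and 108 FPKM against 122 and 119, and Tet2 had 2.76 and 3.86 against 2.30 and 2.97, neither called. The median log2 fold change of this list was 0.07, and it lay between -0.11 and 0.11 with 1 library left out.

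Ribosomal protein and oxidative phosphorylation genes had medians below 0, and glycolysis genes did not. Of 78 cytosolic ribosomal protein genes 7 were called lower (8.97%, near the 8.42% of all genes) and none higher, and in 49 both double knockout libraries were below both Bcor-/- libraries (29.3% of all tested genes were). Of 75 subunits of oxidative phosphorylation 5 were called lower (6.67%, against 8.42%) and none higher, with Atp5g1, a subunit of the ATP synthase ring, at 39.6 and 40.8 FPKM against 80.4 and 85.5. Their median log2 fold changes of -0.39 and -0.25 became -0.57 and -0.41 under quantile normalization. Without double knockout replicate 1 they were -0.45 and -0.21, and without replicate 2 -0.33 and -0.32. The counts depended on the scaling, with 17 ribosomal and 12 oxidative phosphorylation genes called lower under quantile normalization and 30 and 19 under median centring. Under these scalings 1609 and 1651 of all 11270 tested genes were called lower. Without Bcor-/- replicate 1 or 2 the medians were -0.41 and -0.38 for the ribosomal list. For oxidative phosphorylation they were -0.29 and -0.22. Of 24 glycolysis genes 3 were called higher (12.5%, against 10.2% of all tested genes) and 5 lower (20.8%, against 8.42%). Their median of 0.16 became -0.23 under quantile normalization and -0.014 under median centring. With 1 library left out it lay between -0.01 and 0.25. The pyruvate kinase genes moved in opposite directions: Pklr, the pyruvate kinase of red cells, fell from 171 and 180 FPKM to 59.7 and 87.6 (log2 fold change -1.27, SE 0.24, adjusted p = 0.141), and Pkm, the isoform of leukocytes and progenitors, rose from 61.5 and 41.6 to 148 and 97.3 (1.23, SE 0.32, adjusted p = 0.172). Srebf1, the factor that drives lipid synthesis genes, fell from 74.6 and 67.2 FPKM to 30.3 and 29.9, with 38.5 to 44.9 in WT.

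Among genes outside these lists the widest gaps between the genotypes were in both directions. Apol11b, an apolipoprotein L gene, had 20.6 and 77.6 FPKM against 0.0763 and 0, and Ifitm6, an interferon-induced membrane protein gene of myeloid cells, had 50.4 and 163 against 1.56 and 1.74. Slc22a3, an organic cation transporter, fell from 36.0 and 41.4 FPKM to 3.71 and 4.72 (log2 fold change -2.93, SE 0.20, adjusted p = 0.141). Grb10, an imprinted adaptor that restrains growth factor receptors, fell from 25.4 and 25.01 FPKM to 3.89 and 2.47 (-2.67, SE 0.25, adjusted p = 0.141), with 17.9 to 19.7 in WT. Zg16, a secreted lectin, had 0.383 and 1.61 FPKM against 17.4 and 21.5, and 17.4 to 20.1 in WT. For Hspa1b, an inducible heat shock protein, 0.135 and 0.708 FPKM stood against 8.39 and 6.54 in Bcor-/- and 0.156 to 0.666 in WT, so here the Bcor-/- libraries were the ones that stood apart. Sh2d4a, Spon2, Khdrbs3, Ccdc8 and 1700112E06Rik were also lower, by 1.91 to 2.10 on the log2 scale.

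The same contrast was fitted in LSK cells of the same mice. Of 12017 tested genes 2578 (21.5%) were called, 1380 higher (11.5%) and 1198 lower (9.97%). Of the 1145 genes called higher in MEP, 1136 were tested in LSK, where 542 were called higher and 41 lower, and of the 949 called lower, 932 were tested, 357 called lower and 3 higher. The red cell membrane list was called higher in 16 of 26 genes in LSK and in 2 of 25 in MEP, with Slc4a1 at log2 fold changes of 6.35 and 6.78. Late neutrophil genes were called higher in 9 of 22 and lower in 3 in LSK and higher in 22 of 23 in MEP: S100a8 had a log2 fold change of 0.08 in LSK and of 5.76 in MEP, and the test of the difference, paired by mouse, gave an adjusted p of 0.377. Primary granule genes were lower in LSK, 15 of 19, with Mpo at -3.82 there and -1.25 in MEP (adjusted p of the difference 0.737). Of 12168 genes tested for a difference between the cell types 1309 (10.8%) had an unadjusted p under 0.05, and none an adjusted p under 0.05 in limma's test, the smallest being 0.377.

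**Figure D4:**
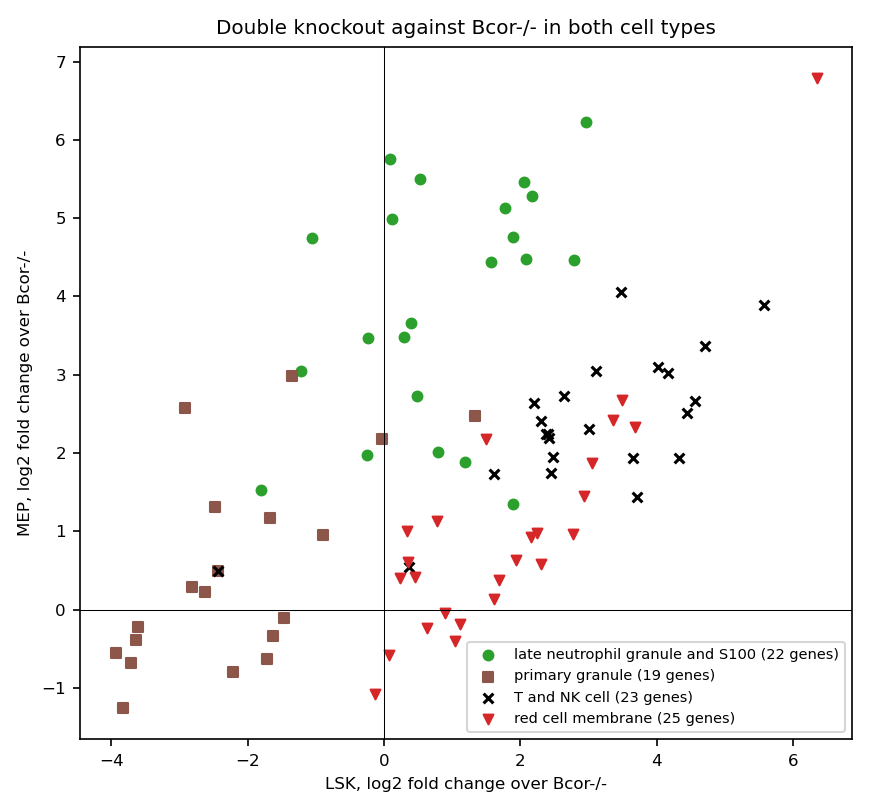
Log2 fold change of Bcor-/-Dnmt3a-/- over Bcor-/- in LSK (x axis) and MEP (y axis) on the log2(FPKM + 1) scale; each point is a gene tested in both cell types, from 4 gene lists. T and NK cell and red cell membrane genes lie mostly higher in both, late neutrophil genes are higher in MEP over a range of LSK values that spans 0, and primary granule genes lie mostly lower in LSK.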

How the data were processed

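PolyA RNA of sorted MEP and LSK cells was extracted with the RNeasy kit and sequenced on libraries of the Illumina RNA-seq protocol. What the authors deposited were FPKM values of 24315 genes, in separate tables for MEP and for LSK that hold 10 libraries each. The submitters' processing notes name STAR 2.5.1b, SAMtools 1.9, Cufflinks 2.2.1 and the genome build mm9, with no role or order. The annotation, the scaling between libraries and the use of strand are not given in the sources used here. An FPKM of 0 can be a failed estimate and is reported as listed at 0. Read counts were not used, so the depth and the counting error are unknown.

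FPKM were transformed as log2(FPKM + 1) in R 4.3.3, keeping genes with 1 FPKM or more on average in the 4 libraries compared. limma 3.58.1 (moderated test with a mean-variance trend) was fitted to the 2 Bcor-/-Dnmt3a-/- and 2 Bcor-/- libraries. P-values are two-sided and unadjusted unless named as adjusted (Benjamini-Hochberg over all genes tested), and they measure the spread between these mice. To compare effects in MEP and LSK, the LSK value of each mouse (or labelled pair of mice) was subtracted from its MEP value and limma was fitted to these differences. The thresholds are those of the study's methods, which name no test. The fit was tested on simulated data, in which 200 genes were given known changes.

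Genes named are the 10 largest changes and the 10 widest gaps between the groups in each direction among those called, 11 genes central to the study, the members called with the largest changes in 40 gene lists and defining markers of other cell types. Others named were chosen after their values were seen. The comparison and the lists were chosen with earlier results of these data known. No gene set was tested. Some genes that this rule selects are not reported here. Promoters were matched by symbol to RefSeq on GRCm38.p6. Plots were made in matplotlib 3.10.9 (Python 3.11.15). The alternatives tried were quantile normalization, median centring, a pseudocount of 0.1, a filter at 5 FPKM or none, all 10 libraries of the cell type in 1 fit (also with 1 variance per genotype), no trend, the adjusted p, a 2-fold limit, the replicate number as a block, and each library left out in turn.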

Additional observations from a re-analysis of the deposited data

Results flagged for a closer look

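For 8 of the 203 genes picked by the naming rule, the double knockout lay on opposite sides of Bcor-/- in MEP and in LSK. The groups overlapped in neither cell type. In MEP alone the groups did not overlap for 59.7% of all tested genes. How many of all tested genes lay on opposite sides in this way was not counted, so the 8 are a description. None of the differences between MEP and LSK had an adjusted p under 0.05 in limma's test paired by mouse. In that test the adjusted p of these 8 genes lay between 0.377 and 0.536. The value given is the log2 fold change in MEP minus that in LSK. The neutrophil gene Wfdc21 had 73.0 and 160 FPKM against 3.26 and 2.89 in MEP, and 76.1 and 85.7 against 149 and 192 in LSK, a difference of 5.802 (SE 0.98). Fcnb, the ficolin of granulocyte precursors, differed by 5.49 (SE 2.74), and the Fc receptor Fcgr3 by 4.33 (SE 1.25). The myeloid hexokinase Hk3 differed by 3.92 and the pyruvate kinase Pkm by 2.08. Spi1, which encodes the myeloid transcription factor PU.1, had 37.2 and 28.2 FPKM against 14.5 and 11.2 in MEP, and 72.1 and 72.3 against 106 and 134 in LSK, a difference of 1.99 (SE 0.75). Lyl1 differed by 1.23. Ldb1 alone was lower in MEP and higher in LSK, with a difference of -0.92 (SE 0.24).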

How the results depend on the processing

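The number of genes called depended more on which library was present than on the pseudocount, the filter or the trend. Without 1 library, MEP calls ranged from 343 (without Bcor-/- replicate 2; 285 higher and 58 lower) to 4671 (without double knockout replicate 1; 2727 and 1944), with 477 without Bcor-/- replicate 1 and 4209 without double knockout replicate 2, and LSK calls from 785 (514 and 271) to 4839 (2577 and 2262) without the same libraries. In these fits the lone library is assumed to vary like the other group. With all 10 MEP libraries in 1 fit 3250 genes were called, 2015 of them higher, and 2363 passed the adjusted p. With 1 variance per genotype in that fit 2002 were called and 69 passed it. By the adjusted p in the 4-library fit 0 MEP genes were called, 0 higher and 0 lower, while 2471 had an unadjusted p under 0.05, and 1 LSK gene, Mir703, was called, with 1 higher and 0 lower. A 2-fold limit left 1135 MEP genes (272 lower) and 1610 LSK genes (653 lower). A minimum of 5 FPKM left 761 MEP genes higher and 829 lower, so that more were lower than higher. Quantile normalization gave 715 higher and 1609 lower in MEP, and median centring 1651 lower. The cause of these shifts was not tested.

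The replicate numbers name different mice, and the differences between replicates of both genotypes correlated at 0.13 in MEP and -0.05 in LSK, so the numbers were not taken as pairs. With the replicate number as a block 1796 MEP genes were called, 1139 higher and 657 lower, 1533 of them among the 2094, and 2235 LSK genes. Of 161 named genes called, 15 were not called with the block, 50 with 1 variance per genotype, 38 with the 2-fold limit, 22 with quantile normalization, 14 with median centring, 84 and 99 without Bcor-/- replicate 1 or 2, and 12 and 9 without double knockout replicate 1 or 2. None of these 161 changed sign under these alternatives. Genes that were not called did so: Bcor stood at -0.00739 with quantile normalization, at -0.050 with median centring, and between -0.094 and 0.34 when 1 library was left out, Gata1 between -1.40 and 0.33, Klf1 between -1.45 and 0.16, and Parp1 between -0.96 and 0.26.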

Other observations

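Several genes were far higher in 1 double knockout library than in the other 3 MEP libraries compared. They were chosen after their values were seen, and no test supports them. In replicate 1 the homeobox genes Hoxb7 and Hoxb8 had 23.1 and 21.2 FPKM, while replicate 2 is listed at 0 for both and the Bcor-/- libraries stood at 0.131 or less. In the same library Erg, an ETS factor of stem and megakaryocytic cells, had 124 FPKM against 5.30 in replicate 2 and 12.6 and 10.1 in Bcor-/-, Bok, a Bcl2 relative, had 33.1 against 0.297, 0.571 and 0.508, and Cdkn2a, the INK4a/ARF locus, had 8.23 against 0.276, 0 and 0. Replicate 2 held the embryonic globins Hbb-y and Hbb-bh1 at 4.60 and 4.27 FPKM, listed at 0 in the other 3 libraries, and the stress gene Gadd45a at 371 FPKM against 17.9 in replicate 1 and 32.3 and 35.6 in Bcor-/-. Bnip3l, the mitophagy receptor of maturing red cells, had 52.4 and 536 FPKM against 43.7 and 45.6.

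MHC class II genes were called higher in 3 of 10, Cd74, H2-Eb1 and H2-DMb2, and in none lower, against 10.2% of all tested genes called higher. The median log2 fold change of the 10 was 1.24, and 0.46 and 1.78 without double knockout replicate 1 or 2. Without Bcor-/- replicate 1 or 2 it was 1.40 and 1.02. Of 21 cholesterol synthesis genes 3 were called lower (14.3%, against 8.42% of all tested genes), Srebf1, Dhcr7 and Mvk, and replicate 1 stood below both Bcor-/- libraries for 20 of the 21 and replicate 2 for 6, as did 45% and 45.7% of all tested genes. The median log2 fold change of the 21 was -0.12, and 0.48 and -0.58 without double knockout replicate 1 or 2. Without Bcor-/- replicate 1 or 2 it was -0.01 and -0.19. Amino acid response genes were called higher in 2 of 20 (10%, near the 10.2% of all tested genes), Trib3 (6.27 and 23.1 FPKM against 0.919 and 0.0681) and Eif2ak3. The median log2 fold change of the 20 was 0.54, and 1.47 and -0.12 without double knockout replicate 1 or 2. Without Bcor-/- replicate 1 or 2 it was 0.52 and 0.68. Of 23 mitophagy and autophagy genes Pink1 alone was called (4.35%, against 10.2% of all tested genes called higher), at 47.8 and 101 FPKM against 25.4 and 25.6. The median log2 fold change of the list was 0.44. It was 1.04 without double knockout replicate 1, 0.05 without replicate 2, and 0.42 and 0.55 without Bcor-/- replicate 1 or 2. Xist was at or below 0.0552 FPKM and the Y-linked gene Ddx3y at or above 15.2 in all 4 libraries.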
